A study of Mus musculus with 24 samples.

Results

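The genes described here are the 36 nuclear genes listed as structural subunits of complex I of the respiratory chain, matched by symbol among the 55487 Ensembl mouse genes of the tables, and all 36 were found. Of these, 6 encode core subunits (Ndufs1, Ndufs3, Ndufs7, Ndufs8, Ndufv1 and Ndufv2) and 30 encode accessory subunits. They were measured by RNA-seq of poly-adenylated RNA from the gastrocnemius, a calf muscle, of 24 male C57BL/6J mice, 1 library per mouse, in 3 groups of 8. In the first group (casted, MOTS-c) both hindlimbs were held in casts for 8 days while the mice received MOTS-c, a short peptide encoded in the mitochondrial genome, at 15 mg/kg/day, split over 2 intraperitoneal injections a day for 8 days. In the second group (casted, water) the casts were the same and sterilized water was injected on the same schedule. In the third group (uncasted, water) mice received the water injections and no cast. All groups were thus injected wild-type mice, and the design has no casted mouse without injections and no uncasted mouse with MOTS-c. The mice were 10 weeks old when assigned, per the design text, and 12 weeks old per the sample labels.

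Complex I, NADH:ubiquinone oxidoreductase, takes electrons from NADH, passes them through a flavin and a chain of iron-sulfur clusters to ubiquinone, and uses the energy released to pump protons across the inner mitochondrial membrane. The core subunits carry out this chemistry and have bacterial counterparts, and the hydrophobic core subunits of the membrane arm are encoded by the mitochondrial genome. The accessory subunits surround the core and serve its assembly and stability. The complex is put together from modules: N (NADH oxidation) and Q (ubiquinone reduction) form the arm in the matrix, and the ND1, ND2, ND4 and ND5 modules form the arm in the membrane. Skeletal muscle is rich in these transcripts because its fibres hold many mitochondria.

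Values are scaled TPM: the deposited TPM, a length-corrected share of all transcripts, after a rescaling of each library (trimmed mean of log ratios) that levels the middle of all genes. Fold changes are on log2(scaled TPM + 1), come from 1 limma fit over 24 libraries and 14690 genes that reached 0.5 TPM in 8 or more libraries, and are given with their standard error (SE). A gene was called when its p, adjusted by the Benjamini-Hochberg method over all genes tested, was below 0.05. TPM has a fixed total, so depth is unknown and no counting interval can be given; 19832 to 21755 genes per library were above 0. Muscle markers Ckm (creatine kinase) and Acta1 (skeletal actin) were high in every library, with at least 6495 scaled TPM of Acta1, and of the heart and brown fat markers Ucp1, Nppa and Myl7 were at or near 0 (at most 0.123 scaled TPM), with the fourth, Cidea, at 0.729 to 1.295 scaled TPM with MOTS-c, 0.348 to 0.824 in casted, water libraries and 0.377 to 1.014 in uncasted libraries. The sum of 7 muscle fibre markers was 35720 to 61760 scaled TPM in casted, MOTS-c libraries, 33000 to 50190 in casted, water libraries and 76440 to 88300 in uncasted libraries. Of these 7, 6 were called lower with casting and 1 higher (3 lower and 1 higher on deposited TPM). Myh1 went the other way from the sum, with means of 1349, 1233 and 880.8 scaled TPM in those groups. Of the markers of other cells, 4 of 6 of macrophages rose with casting on the scaled values, 5 of 5 of endothelium fell, 3 of 5 of fibroblasts fell and 1 of 5 of adipocytes rose (Retn, resistin), whereas 0 of 4 of erythroid cells and 0 of 2 of satellite cells passed the test. On deposited TPM 6 of 6 of macrophages and 4 of 5 of adipocytes were higher, and of endothelium 2 were lower and 1 higher. Of fibroblasts 2 were lower and 2 higher there, and 3 of 4 of erythroid cells and 1 of 2 of satellite cells were higher. On that scale 7.43% of all genes tested were lower and 62.2% higher, and on the scaled values 27.7% were lower and 28.7% higher. The macrophage sum was 113.5 to 280.8 scaled TPM with MOTS-c, 88.4 to 216.8 in casted, water libraries and 70.2 to 94.4 in uncasted libraries. The adipocyte sum was 21.45 to 40.31, 17.45 to 31.15 and 11.58 to 22.03 scaled TPM in those groups. Their part in the results was not tested. In whole muscle, fewer cells of a type and less RNA per cell cannot be told apart.

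The promoters of 5 members are shown because these genes bracket the results that follow: Ndufc1 had the most negative fold change with casting, Ndufa7 the one nearest 0, Ndufs3 the smallest fall among the core genes, and Ndufs6 and Ndufb4 the most positive and the most negative difference with MOTS-c. The sequences are RefSeq promoters of GRCm38.p6, 250 bases before to 50 after the gene's start, read 5′ to 3′ on the gene's strand; capitals mark motifs searched on both strands.
Ndufc1 (chr3:51408906-51409205, minus strand): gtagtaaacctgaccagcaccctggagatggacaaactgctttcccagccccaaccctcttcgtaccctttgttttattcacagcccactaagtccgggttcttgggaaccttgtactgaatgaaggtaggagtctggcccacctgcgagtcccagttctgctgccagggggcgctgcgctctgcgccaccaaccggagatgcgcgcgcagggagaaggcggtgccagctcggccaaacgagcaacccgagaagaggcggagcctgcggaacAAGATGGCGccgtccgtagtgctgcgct
Ndufa7 (chr17:33824395-33824694, plus strand, the second of its 2 starts): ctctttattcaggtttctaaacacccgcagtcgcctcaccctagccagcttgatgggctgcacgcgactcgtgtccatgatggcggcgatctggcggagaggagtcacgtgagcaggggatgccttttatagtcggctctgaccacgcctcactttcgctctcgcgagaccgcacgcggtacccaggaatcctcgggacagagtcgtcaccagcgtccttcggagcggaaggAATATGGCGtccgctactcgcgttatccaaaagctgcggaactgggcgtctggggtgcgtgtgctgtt
Ndufs3 (chr2:90904672-90904971, minus strand): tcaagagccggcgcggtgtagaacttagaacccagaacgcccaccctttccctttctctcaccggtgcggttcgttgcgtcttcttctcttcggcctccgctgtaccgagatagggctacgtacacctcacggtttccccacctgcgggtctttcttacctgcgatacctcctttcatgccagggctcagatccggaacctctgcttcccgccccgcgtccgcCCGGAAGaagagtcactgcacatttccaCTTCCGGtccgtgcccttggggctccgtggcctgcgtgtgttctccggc
Ndufs6 (chr13:73328433-73328732, minus strand): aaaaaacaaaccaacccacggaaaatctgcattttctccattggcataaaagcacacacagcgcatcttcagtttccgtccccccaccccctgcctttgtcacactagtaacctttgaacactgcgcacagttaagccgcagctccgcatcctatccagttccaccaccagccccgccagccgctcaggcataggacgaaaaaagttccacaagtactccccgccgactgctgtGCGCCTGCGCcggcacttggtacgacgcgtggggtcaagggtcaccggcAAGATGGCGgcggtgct
Ndufb4 (chr16:37654319-37654618, minus strand): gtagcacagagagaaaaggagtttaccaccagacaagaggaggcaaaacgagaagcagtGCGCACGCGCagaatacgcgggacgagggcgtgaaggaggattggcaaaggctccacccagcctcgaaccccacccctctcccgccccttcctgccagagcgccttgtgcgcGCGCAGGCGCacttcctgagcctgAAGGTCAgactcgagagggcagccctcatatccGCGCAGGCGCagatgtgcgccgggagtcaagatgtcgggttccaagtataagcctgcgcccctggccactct
RefSeq promoters were matched for 33 of 36 members. The letters AANATGGCG, a form of the site of YY1, a zinc finger factor, were in 7 of 33 members (21.2%) and in 2.76% of 27025 genes with a promoter. In 6 of those 7 members, among them Ndufc1, Ndufa7 and Ndufs6, the ATG inside these letters was the annotated start codon. The motif of NRF1, a regulator of respiratory genes, with 1 base left free, was in 7 of 33 members (21.2%) and 5.19% of all genes; Ndufb4 held 3 copies and Ndufs6 held 1. The ETS letters CCGGAAG, bound by GABP, were in 4 of 33 members (12.1%) and 9.93% of all genes, with 2 copies in Ndufs3, and the estrogen-related receptor letters AAGGTCA in 3 of 33 (9.1%) and 5.38%, among them Ndufb4. Of 5 core genes with a promoter, 2 held the ETS letters, 1 the YY1 letters and 0 either of the others. Ndufc1, which fell with casting, and Ndufa7, which did not pass the test, both held the YY1 letters, Ndufa7 only at the second of its 2 starts. Whether any match bears on the response to casting was not tested.

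In uncasted muscle the members ranged 6.86-fold in mean level, which was 118.9 scaled TPM for Ndufb4 and 815.6 for Ndufa4, with a median of 238.4. Ndufa4, first described in complex I and now assigned to complex IV (cytochrome c oxidase), was the highest, at 815.6 ± 80.9 (SD, n = 8). As a listed member it was counted here among the accessory genes throughout, and it was placed in none of the modules. Ndufb8, an accessory subunit of the ND5 module, followed at 733.6 ± 67.6, and Ndufb9, of the same module, at 483.9 ± 46.5, and Ndufa5, of the Q module, at 402.9 ± 46.5. The accessory genes of lowest level were Ndufb4, Ndufb3, Ndufa2 and Ndufb6, at 118.9 to 139.8. Reads of Ndufb4 may be split with a pseudogene that shares its sequence, described below, so its place as lowest and the 6.86-fold range are uncertain. The core gene with the highest level was Ndufv2, at 442.2 ± 40.7, and the core gene with the lowest was Ndufs8, at 150.2 ± 12.3. No member was below 56.2 scaled TPM in any library, so all 36 passed the filter on low values in every group.

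Casting against no casting in water-injected mice asks how immobilization changed these transcripts. Of the 36 members, 35 fell, none rose and 1, Ndufa7, did not pass the test, whereas 27.7% of all genes tested were called lower and 28.7% higher in this comparison; on deposited TPM without rescaling 19 members were lower and 4 higher. The median fold change was -0.66 (range -1.14 to -0.015) over the members and 0.006 over all genes. In 27 members every casted library was below every uncasted one, which held for 10.9% of all genes.

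The core genes fell 6 of 6, with a median of -0.70, and in all 6 the groups did not overlap. Ndufs1, the largest core subunit, which carries iron-sulfur clusters of the N module, had a lowest, median and highest value of 118.4, 130.0 and 141.2 scaled TPM in casted libraries and of 260.7, 276.3 and 285.5 in uncasted libraries. The highest casted library lay far below the lowest uncasted one, and Ndufs1 changed by -1.08 ± 0.06 (SE; limma adjusted p = 1.508e-12). Ndufs8, a Q module subunit with iron-sulfur clusters, had 78.9, 81.8 and 89.0 scaled TPM in casted libraries and 138.0, 146.3 and 176.2 in uncasted libraries, a change of -0.85 ± 0.06. Ndufs7, which holds the last iron-sulfur cluster before ubiquinone, had 142.8, 145.9 and 174.9 in casted and 219.2, 249.4 and 301.9 in uncasted libraries, a change of -0.73 ± 0.07. In both genes the groups were apart. Ndufs3, which carries no cluster, had 218.1, 232.9 and 267.8 scaled TPM in casted libraries against 269.2, 286.1 and 342.8 in uncasted libraries, a change of -0.30 ± 0.06 that became 0.22 on deposited TPM. Its groups were separated by a narrow gap. Ndufv1, which binds NADH and the flavin, changed by -0.51 ± 0.06 (0.004 on deposited TPM), with 184.7 to 223.5 scaled TPM in casted and 270.2 to 319.1 in uncasted libraries. Ndufv2, its partner in the N module, changed by -0.68 ± 0.07, with 234.7 to 323.0 in casted and 389.8 to 525.5 in uncasted libraries. All 6 had a limma adjusted p of 8.247e-05 or lower.

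**Figure D1:**
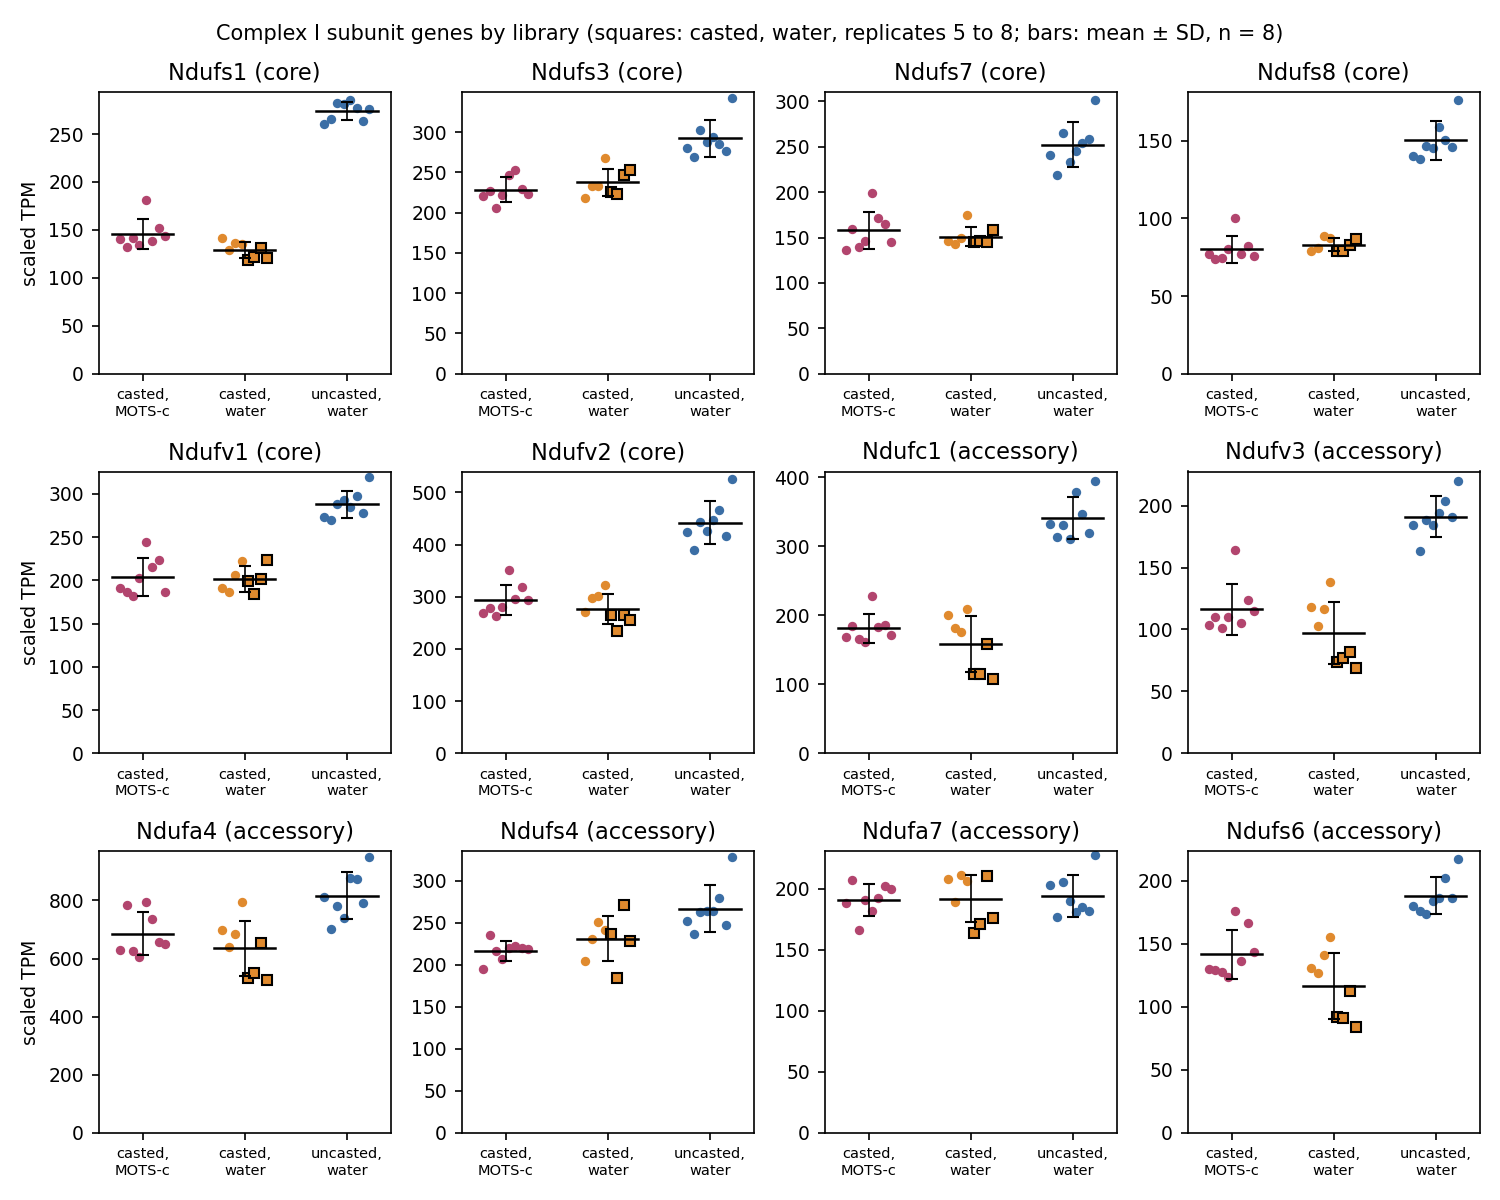
Scaled TPM (y axis, from 0) of the 6 core genes and 6 accessory genes in each library, by group on the x axis, with mean ± SD (n = 8); squares mark casted, water replicates 5 to 8. The casted, water and uncasted libraries are apart for the 6 core genes, Ndufc1 and Ndufv3, and overlap for Ndufa4, Ndufs4 and Ndufa7.

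The accessory genes fell 29 of 30, with a median of -0.64, and in 21 of 30 the groups did not overlap. Ndufc1, a small membrane subunit of the ND2 module, had a lowest, median and highest value of 108.0, 167.3 and 209.4 scaled TPM in casted libraries and of 311.2, 331.7 and 394.0 in uncasted libraries. It changed by -1.14 ± 0.12 (limma adjusted p = 2.093e-08), the most negative value among the members. Ndufv3, an N module subunit known in a short and a long isoform, had 69.3, 92.5 and 138.0 in casted and 163.7, 189.7 and 220.1 in uncasted libraries, a change of -1.01 ± 0.12; the gene-level values do not separate the isoforms. Ndufb2 of the ND5 module changed by -0.93 ± 0.11, with 56.2 to 112.0 in casted and 137.5 to 182.8 in uncasted libraries. Ndufa13 of the ND1 module, also known as GRIM-19, changed by -0.89 ± 0.10, with 87.2 to 151.1 in casted and 181.9 to 238.4 in uncasted libraries. Ndufab1, the mitochondrial acyl carrier protein, which also serves fatty acid and lipoate synthesis, changed by -0.89 ± 0.09, with 111.8 to 175.9 in casted and 220.0 to 308.4 in uncasted libraries. Ndufa11, a membrane subunit of the ND2 module, changed by -0.77 ± 0.06, with 100.3 to 119.0 in casted and 174.9 to 232.5 in uncasted libraries. In none of these did the casted and uncasted libraries overlap. The abundant Ndufb8 changed by -0.80 ± 0.07, with 363.4 to 474.4 in casted and 649.8 to 867.3 in uncasted libraries, and Ndufb9 by -0.75 ± 0.09.

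At the other end, Ndufa7, an N module subunit, had a lowest, median and highest value of 163.9, 197.7 and 211.7 scaled TPM in casted libraries and of 176.8, 187.2 and 227.8 in uncasted libraries. The groups overlapped over most of their range, and the difference was -0.015 ± 0.07 (95% interval -0.15 to 0.12; limma adjusted p = 0.8632), against 0.50 on deposited TPM. Ndufs4, an N module subunit whose loss in mice is used as a model of Leigh syndrome, fell by 0.21 ± 0.07 (limma adjusted p = 0.01368; 0.31 on deposited TPM), with 184.7 to 271.2 scaled TPM in casted and 237.1 to 328.5 in uncasted libraries. Ndufb4 of the ND4 module fell by 0.33 ± 0.09 and Ndufa4 by 0.37 ± 0.09, both with overlapping groups and with values above 0 on deposited TPM (0.18 and 0.15). Ndufa2 and Ndufb3, small subunits of the N and ND5 modules, changed by -0.55 ± 0.10 and -0.62 ± 0.10, and Ndufb6 of the ND4 module by -0.75 ± 0.08. On deposited TPM Ndufa2 (-0.04, limma adjusted p = 0.675) and Ndufb3 (-0.11, limma adjusted p = 0.296) did not pass, and Ndufb6 was at -0.23. The N module held both the second most negative value, Ndufs1, and the 2 nearest 0, Ndufa7 and Ndufs4.

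By module, the median fold change was -0.84 over the 6 ND5 genes, -0.74 over the 5 ND4 genes, -0.68 over the 4 ND1 genes, -0.64 over the 5 Q genes, -0.62 over the 5 ND2 genes and -0.53 over the 10 N genes. In each module but N all genes were called lower, and in N 9 of 10. The ranges overlapped: N genes spanned -1.08 to -0.015, ND2 genes -1.14 to -0.38 and ND5 genes -0.93 to -0.62.

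**Figure D2:**
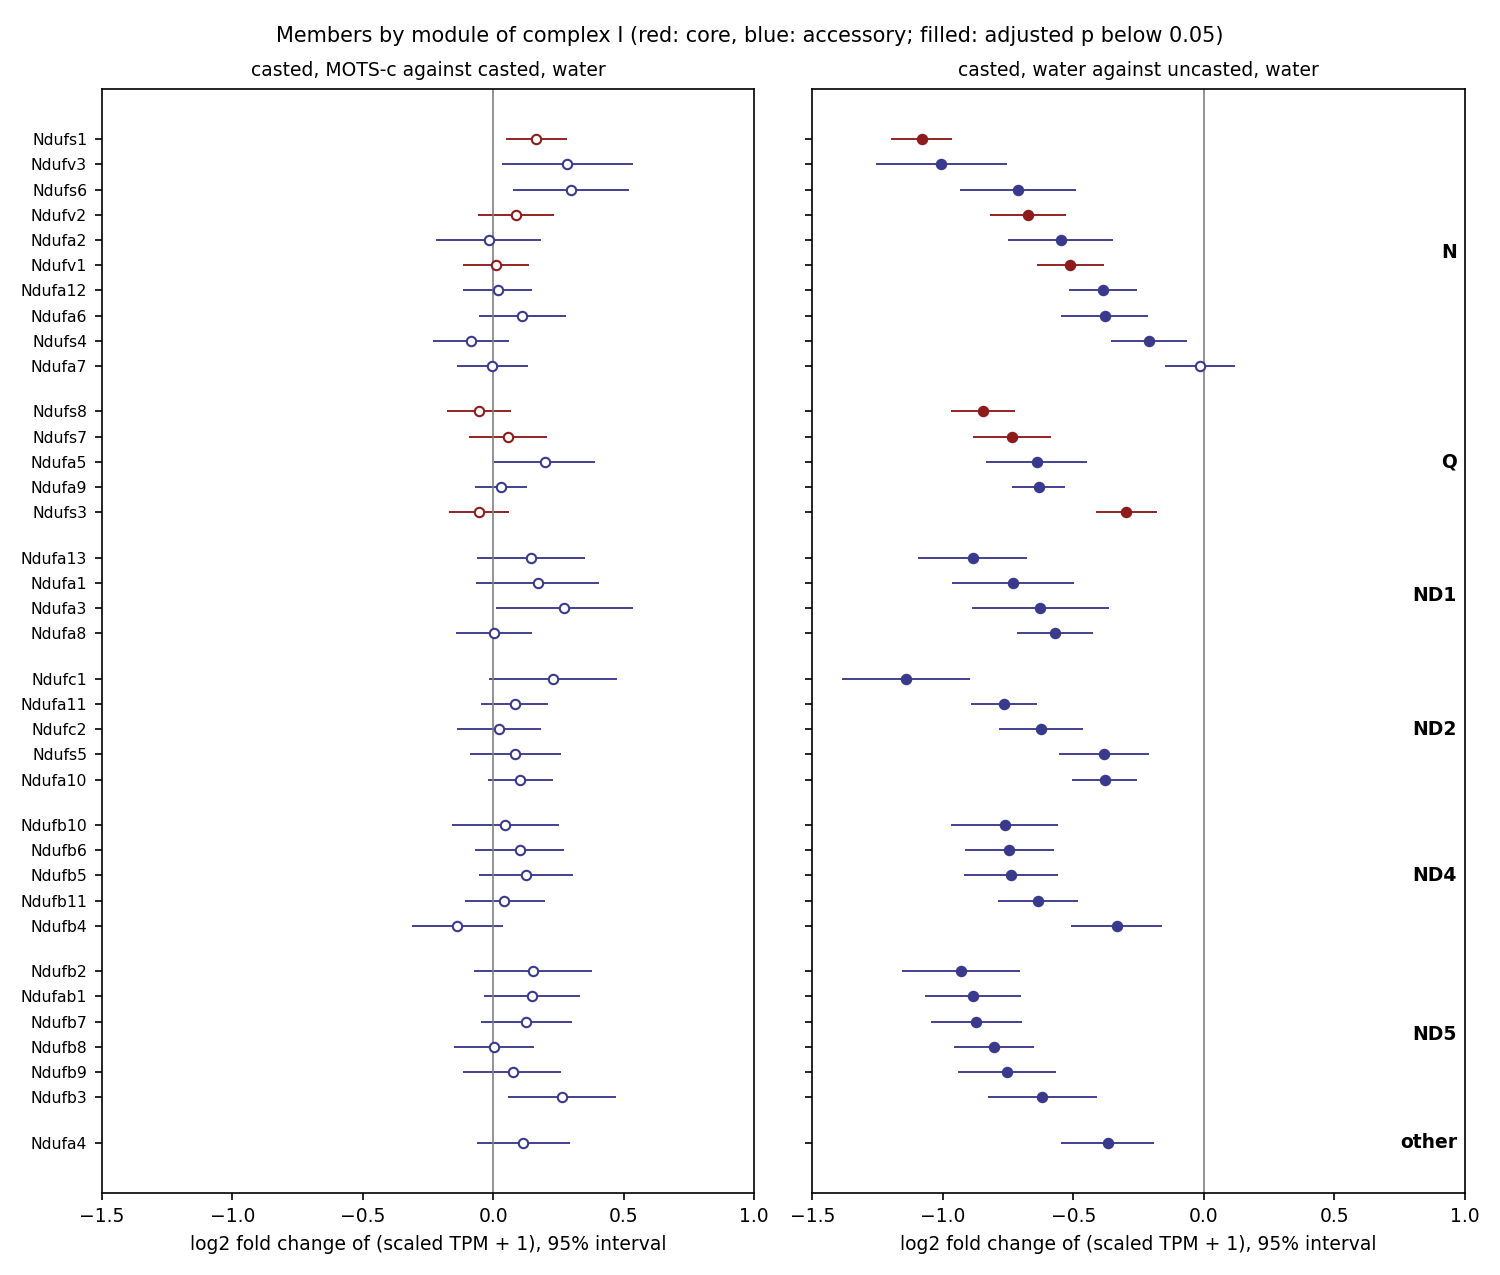
Log2 fold change of (scaled TPM + 1) on the x axis with 95% interval for each of the 36 members, in rows by module, for casted, MOTS-c against casted, water (left) and casted, water against uncasted, water (right); red is core, blue accessory, and filled points passed the test. On the right, 35 points are filled and all lie below 0 (on deposited TPM 19 members were lower and 4 higher); on the left, none is filled and 30 of 36 lie above 0.

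Core and accessory genes were set against each other within each library, as the mean log2 value of the 6 core genes minus that of the 30 accessory genes. This difference is almost free of the library's scaling, which enters only through the pseudocount of 1. It averaged 0.01 ± 0.04 in casted, MOTS-c libraries, 0.07 ± 0.15 in casted, water libraries and 0.13 ± 0.04 in uncasted libraries (SD, n = 8 each). The range was -0.05 to 0.07 with MOTS-c, -0.07 to 0.31 with casting alone and 0.07 to 0.17 without casts, so the casted, water libraries spanned the other groups. The median fold change of the core genes minus that of the accessory genes was -0.07 for casting against no casting, -0.07 for MOTS-c against casting alone and -0.05 for MOTS-c against no casting. In the first comparison that is less than the spread of the within-library difference among casted libraries.

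The casted, water libraries were not alike in this. An earlier analysis of these data had found that replicates 1 to 4 and 5 to 8 of this group stood apart, a division that no label names. In replicates 1 to 4 the core genes minus the accessory genes gave -0.07 to -0.02, and in replicates 5 to 8 they gave 0.08 to 0.31. With only replicates 1 to 4 as the casted, water group, casting gave 33 of 36 members lower (19.8% of all genes), with medians of -0.64 for core and -0.47 for accessory genes; Ndufa4, Ndufa7 and Ndufs5 did not pass. With only replicates 5 to 8 it gave 35 lower (27.7% of all genes), with medians of -0.77 for core and -0.84 for accessory genes. The core values were thus closer between these libraries than the accessory values, and the order of core and accessory medians turned round. Core transcripts were longer, with a median of 1353.5 bases (983 to 2661) against 747.5 bases (419 to 4371) for accessory ones. Over all genes, the median log2 deviation from the uncasted mean of genes with transcripts of up to 800 bases minus that of genes with transcripts over 2000 bases was -0.08 to 0.08 log2 units in casted, MOTS-c libraries, -0.01 to 0.11 in casted replicates 1 to 4, -0.15 to 0.01 in casted replicates 5 to 8 and -0.11 to 0.21 in uncasted libraries; its part in the split was not tested.

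**Figure D3:**
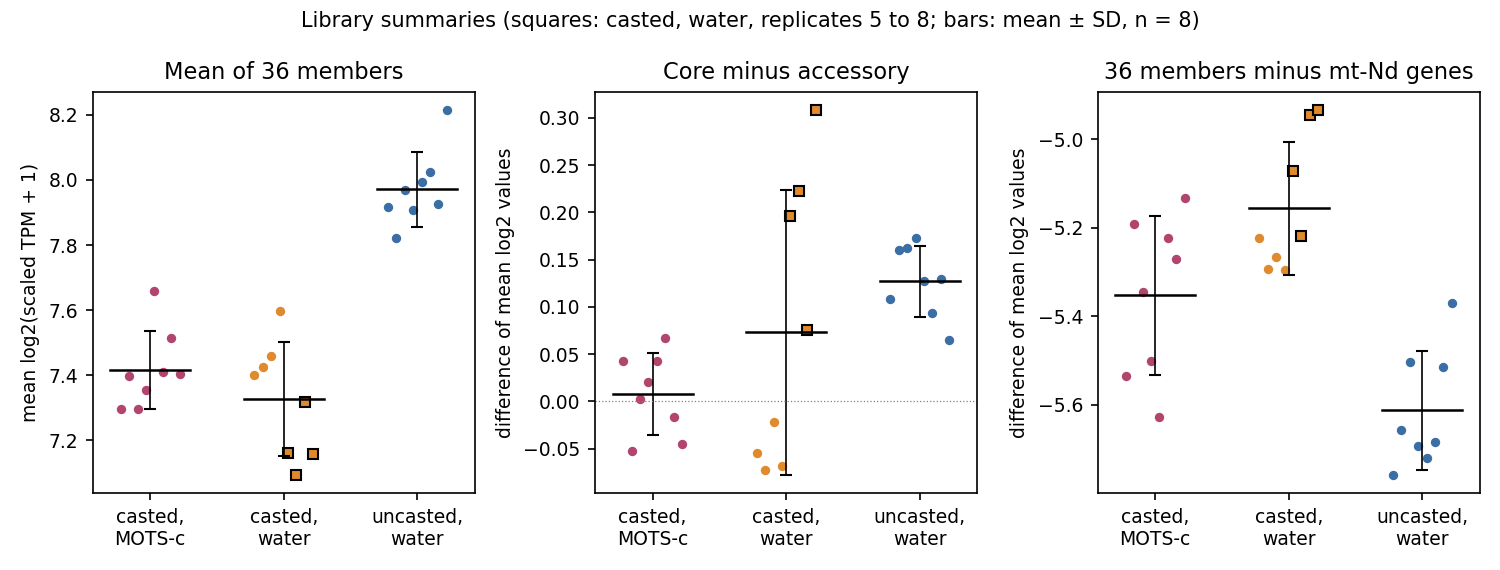
Per library and group (x axis), the mean log2(scaled TPM + 1) of the 36 members (left), the mean of core minus that of accessory genes (middle) and the mean of the members minus that of the 7 mt-Nd genes (right), with mean ± SD (n = 8); squares mark casted, water replicates 5 to 8. These 4 libraries lie lowest in their group in the left panel and at 0.08 to 0.31 in the middle panel, where replicates 1 to 4 lie below 0.

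The fall depended in size, and for some members in direction, on the scaling. The members made up 0.71 to 0.81% of the deposited total in casted, MOTS-c libraries, 0.66 to 0.82% in casted, water libraries and 0.76 to 0.87% in uncasted libraries. Mitochondrially encoded genes and their near-copies in the nuclear genome took 30.0 to 37.3%, 26.6 to 32.1% and 37.2 to 40.8% of the total in those groups. On the deposited TPM without rescaling, the median of all genes shifted to 0.39 for casting against no casting, and the members' median was -0.14. On that scale 19 members were called lower (7.43% of all genes) and 4 higher (62.2% of all genes): Ndufa7, Ndufa10, Ndufs3 and Ndufs4. With TPM re-closed after removal of the mitochondrial genes, the median of all genes was 0.25, that of the members -0.36, and 27 members were lower (13.2% of all genes) and 1, Ndufa7, higher (49.2% of all genes). The members' median minus the median of all genes was -0.66 on the scaled values, -0.61 on the re-closed and -0.53 on the deposited ones.

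**Figure D4:**
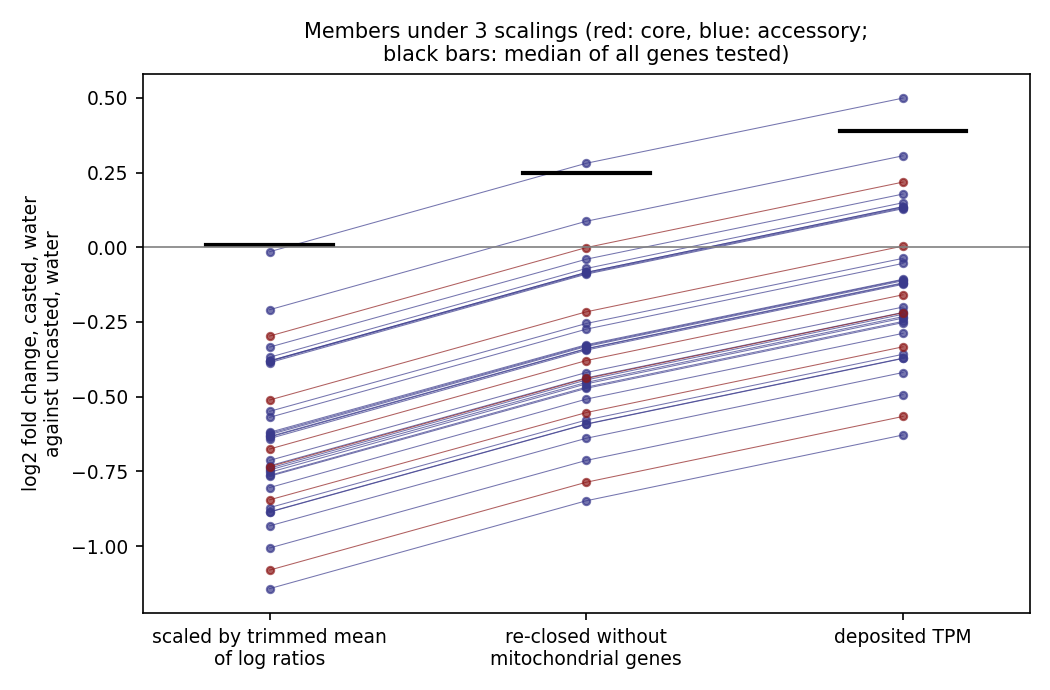
Log2 fold change of each member for casted, water against uncasted, water (y axis) under 3 scalings (x axis); red is core, blue accessory, and the black bar is the median of all genes tested. The members move up together with the all-gene median, which is 0.006, 0.25 and 0.39, and Ndufa7 is the highest line throughout.

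MOTS-c against water in casted mice asks whether the peptide changed these transcripts during immobilization. None of the 36 members passed the test in limma (background 0.00681% of all genes lower and 0.0136% higher). Of the members, 6 had an unadjusted limma p below 0.05, as did 1986 of the 14690 genes tested. In 0 members were the groups apart (0.034% of all genes lower, 0.0408% higher). The median difference was 0.09 over the members and -0.005 over all genes; 30 members were above 0 and 6 below, between -0.14 and 0.30. The 95% intervals of the 36 differences lay between -0.31 and 0.54 in all. Among the core genes the median was 0.03. Ndufs1 had 132.1, 141.0 and 180.8 scaled TPM (lowest, median and highest) in casted, MOTS-c libraries and 118.4, 130.0 and 141.2 in casted, water libraries. Its groups overlapped, and the difference was 0.16 ± 0.06 (unadjusted p = 0.007645, limma adjusted p = 0.2415), the smallest p among the members. The other core differences were 0.09 ± 0.07 for Ndufv2, 0.06 ± 0.07 for Ndufs7, 0.01 ± 0.06 for Ndufv1, -0.05 ± 0.06 for Ndufs8 and -0.05 ± 0.06 for Ndufs3.

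Among the accessory genes the median was 0.10. Ndufs6, an N module subunit that binds zinc, had 123.9, 132.9 and 175.5 scaled TPM in casted, MOTS-c libraries and 84.2, 119.4 and 155.3 in casted, water libraries, overlapping, with a difference of 0.30 ± 0.11 (limma adjusted p = 0.2593). Ndufb3 differed by 0.26 ± 0.10, Ndufv3 by 0.28 ± 0.12, Ndufa3 of the ND1 module by 0.27 ± 0.13 and Ndufa5 of the Q module by 0.20 ± 0.09, all with a limma adjusted p of 0.2827 or higher. Ndufc1 differed by 0.23 ± 0.12 (limma adjusted p = 0.4002). Ndufb4 had the most negative difference, -0.14 ± 0.09, and Ndufs4 followed at -0.08 ± 0.07. With pseudogene copies added to their member, the difference of Ndufb4 was 0.24.

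The casted, water libraries chosen mattered here. The division into replicates 1 to 4 and 5 to 8 was found in these same data, and no label names it. Replicates 5 to 8 had the lower mean log2 values over the members, 7.09 to 7.32 against 7.40 to 7.60. The counts and p-values against either part therefore describe how the result depends on the libraries and are no test of MOTS-c. Against replicates 5 to 8 alone, 16 members were called higher in casted, MOTS-c libraries (4.62% of all genes higher, 5.70% lower), with a median of 0.22. They were 15 of the 30 accessory genes and 1 of the 6 core genes, Ndufs1 (0.23, limma adjusted p = 0.0343, within 0.0343 to 0.995 over 36 alternatives); among the accessory ones, Ndufa3 differed by 0.63, Ndufv3 by 0.60, Ndufs6 by 0.57 and Ndufb3 by 0.50. Against replicates 1 to 4 alone, 0 members were called (0.00681% of all genes in each direction) and the median was -0.06, with Ndufv3 at -0.04 and Ndufa3 at -0.09. In scaled TPM, Ndufs6 was at 84.2 to 112.6 in casted replicates 5 to 8 and at 126.3 to 155.3 in casted replicates 1 to 4. Casted, MOTS-c replicate 5 had the highest mean over members in its group, and without it the median difference from all casted, water libraries was 0.06; it was 0.05 without casted, water replicate 6.

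Casted, MOTS-c libraries against uncasted ones share the uncasted mice with the first comparison, so the values stand side by side as such. Here 35 members fell and Ndufa7 did not pass (24.7% of all genes lower, 26% higher), with a median of -0.59 over the members and 0.014 over all genes, and 27 did not overlap (8.15% of all genes). The core genes fell 6 of 6 (median -0.63) and the accessory genes 29 of 30 (median -0.58). Ndufs1 changed by -0.92 ± 0.06 with MOTS-c, against -1.08 for casting with water. Ndufs8 changed by -0.90 ± 0.06, against -0.85. Ndufc1 changed by -0.91 ± 0.12, against -1.14. Ndufa7 had 166.0 to 207.0 scaled TPM with MOTS-c, a difference from uncasted muscle of -0.019 ± 0.07, against -0.015. Ndufa3 changed by -0.35 ± 0.13 (limma adjusted p = 0.02339), against -0.63; it did not pass without casted, MOTS-c replicate 3 (-0.31, limma adjusted p = 0.0506) or with the replicate number as a block (-0.35, limma adjusted p = 0.0507); over 34 alternatives the adjusted p was 0.000653 to 0.578. On deposited TPM, 19 members were lower (6.94% of all genes) and 4 higher (60% of all genes), and the median was -0.15, where that of all genes was 0.34. With TPM re-closed after removal of the mitochondrial genes, 24 members were lower (10.9% of all genes) and 1, Ndufa7, higher (48% of all genes).

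The mitochondrially encoded core genes of the same complex all fell with casting, 7 of 7, with a median of -1.02 against -0.66 for the nuclear-encoded members (-0.50 against -0.14 on deposited TPM, 7 of 7 lower there too). Of all genes tested, 27.7% were lower and 28.7% higher with casting, and 7.43% lower and 62.2% higher on deposited TPM. The mt-Nd genes ranged between -1.67 for mt-Nd6 and -0.84 for mt-Nd4. Within each library, the mean of the members minus that of the mt-Nd genes averaged -5.35 ± 0.18 with MOTS-c, -5.16 ± 0.15 in casted, water libraries and -5.61 ± 0.13 in uncasted libraries (SD, n = 8 each), again almost free of the scaling. Every casted, water library, at -5.30 to -4.94, lay above every uncasted one, at -5.76 to -5.37, and the casted, MOTS-c libraries, at -5.63 to -5.13, overlapped both. Nuclear copies of mt-Nd3, mt-Nd4 and mt-Nd4l drew many reads, and mt-Nd5 and mt-Nd6 overlap on opposite strands, so the mt-Nd levels are uncertain. The nuclear-encoded subunit genes of complexes II to V fell 39 of 40 (median -0.65), where 27.7% of all genes were lower. On deposited TPM 20 of them were lower and 1 higher, where 7.43% of all genes were lower and 62.2% higher. The members minus these genes averaged -0.78 ± 0.02 with MOTS-c, -0.74 ± 0.02 in casted, water libraries and -0.81 ± 0.02 in uncasted ones. The casted, water libraries lay at -0.77 to -0.71 and the uncasted ones at -0.85 to -0.78, a gap narrower than the SD of either group.

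Of the assembly factors, which build complex I and then leave it, 15 of 18 were lower with casting, 1 higher and 2 did not pass, with a median of -0.35, where 27.7% of all genes tested were lower and 28.7% higher. On deposited TPM 3 were lower and 9 higher (median 0.16), and on re-closed TPM 7 lower and 2 higher (median -0.055), so the direction of this list depended on the scaling. Ndufaf5, a hydroxylase acting on Ndufs7, changed by -1.10 ± 0.10 and Dmac2, a membrane arm assembly factor, by -1.04 ± 0.08; both were lower on deposited TPM too (-0.60 and -0.54). Nubpl, which delivers iron-sulfur clusters to the complex, was the one that rose, by 0.37 ± 0.14 (limma adjusted p = 0.02402). Of 15 genes of transcription factors and coactivators known for respiratory genes and mitochondrial DNA, 6 fell, 4 rose and 5 did not pass, beside the same 27.7% of all genes lower and 28.7% higher. On deposited TPM 2 were lower and 9 higher, and on re-closed TPM 4 lower and 7 higher. Esrra, an estrogen-related receptor, fell by 1.06 ± 0.10 and its coactivator Ppargc1a by 0.67 ± 0.17 (on deposited TPM -0.56 and -0.18, the second with a limma adjusted p of 0.323), whereas Nrf1 rose by 0.40 ± 0.09 and Yy1 by 0.26 ± 0.07. For MOTS-c against water in casted mice 0 genes of either list passed the limma test (0.00681% of all genes lower, 0.0136% higher). In each list 3 genes had an unadjusted limma p below 0.05, beside 1986 of the 14690 genes tested.

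With the group means removed, the members varied together over the 24 libraries, with a median pairwise correlation of 0.69. The points share libraries and their scaling. Differences within a group remain in them, such as that between casted, water replicates 1 to 4 and 5 to 8 (members' mean log2 value 7.47 and 7.18). Their part in the correlations was not tested. The same median was not computed over all genes, so 0.69 does not set the members apart from other genes. Each member's correlation with the mean of the others was highest for Ndufv2 (0.95) and Ndufb9 (0.94) and lowest for Ndufb4 (0.34) and Ndufa10 (0.42). Among the core genes other than Ndufv2 it was 0.58 to 0.70. All other tested genes were ranked by likeness to the members' mean, without the lists used here, mitochondrial genes and their near-copies. Genes with provisional symbols (Gm, AC or AL with a number, or ending in Rik) were left out too. Of the rest, the most alike were Thoc7 (0.94), Uqcc2 (0.93), a complex III assembly factor, Mrps21 (0.92), a mitochondrial ribosomal protein, Psmc3ip (0.91) and the Ndufb4 pseudogene Ndufb4c (0.91), over the same 24 libraries.

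Some members share sequence with other annotated genes. Processed pseudogenes with at least 90% identity over at least 200 bases were found for 15 members, and for 5 of them a copy had a median above 10 TPM, so reads may be split between them. Ndufb4c matched Ndufb4 at 100% over 210 bases and had a median of 322.3 TPM. It changed by -0.72 with casting and by 0.37 with MOTS-c against casting alone, where Ndufb4 had -0.33 and -0.14. The level of Ndufb4 and its low correlation with the other members are therefore uncertain. The other 4 copies were Gm15920 for Ndufa12 (174.3 TPM), Gm4459 for Ndufab1 (87.5 TPM), BC002163 for Ndufs5 (61.1 TPM) and Gm12251 for Ndufs3 (14.1 TPM). With copies added to their member, 35 members were again lower with casting, with a median of -0.66, and Ndufb4 differed with MOTS-c by 0.24 (limma adjusted p = 0.294, within 0.172 to 0.995 over 36 alternatives) in place of -0.14. The sources used here do not state whether reads were assigned by strand, so members that overlap a gene on the other strand, such as Ndufs1 (chr1:63143596-63176833) with Eef1b2 and Ndufa3 (chr7:3617373-3620327) with Tfpt, may include its reads; Ndufa13 (chr8:69894180-69902558) overlaps Yjefn3 on the same strand.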

How the data were processed

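TRIzol and column extraction of 24 gastrocnemius samples was followed by poly-A-capture libraries, per the labels' protocols. The authors deposited TPM for 55487 Ensembl genes per library; FastQC, STAR, RSEM and DESeq2 with GRCm38.p6 are named, without versions, per the submitters' processing notes, and the annotation release and strand are not given in the sources used here. TPM keep no depth, so precision was judged from the spread between 8 mice per group alone.

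Symbols, coordinates and transcript lengths came from GENCODE vM21 (GRCm38), with 55227 identifiers matched, and promoters from RefSeq. TPM were rescaled by an unweighted trimmed mean of log ratios (30% of ratios, 5% of levels trimmed). limma 3.58.1 (R 4.3.3) with a mean-variance trend was fitted to log2(scaled TPM + 1) with 3 group means over 24 libraries, without covariates, and was tested on simulated data; tests were two-sided. The pseudocount of 1 understates changes of low genes. Near-copies were found with blastn 2.17.0. Alternatives covered scaling, pseudocount, filter, samples fitted, array weights, replicate block and leaving out each library; pseudogene copies and transcript length were added after seeing the data.

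The members and the other gene lists were chosen with earlier results of these data known, so medians and counts over them carry no p of their own. Genes named are the core genes, members with another role or several isoforms, the 4 most and 4 least negative accessory genes with casting, the 4 highest and 4 lowest in level, the 4 of smallest p with MOTS-c, the 4 that differed most between the comparisons with uncasted mice, and, where a sentence gives a full set, its members. The results of a further marker list are not reported here. No library pair shared more than 1.34% of exactly equal values among the 14690 genes tested.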

Additional observations from a re-analysis of the deposited data

Results flagged for a closer look

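Values by library were compared within each group of 8 for the named members and 6 library summaries, 90 sets in all; a value was taken as far from the others when its gap to the nearest, as a share of the group's range, exceeded Dixon's 95% value, which chance gives in about 1 of 20 sets. It did in 12 sets, and 11 of these came from the same 2 libraries. Casted, MOTS-c replicate 5 was the highest for Ndufs1 (180.8 scaled TPM, the others 132.1 to 152.1), Ndufs8 (100.3, the others 73.8 to 82.1), Ndufc1 (227.8, the others 161.5 to 186.5), Ndufv3 (164.4, the others 101.5 to 123.5), Ndufa13 (166.9, the others 104.0 to 128.9) and Ndufb8 (548.8, the others 374.0 to 433.8). In that library mitochondrial genes and near-copies took 37.3% of the total, the most in its group. Uncasted replicate 8 was the highest for Ndufs3 (342.8 scaled TPM, the others 269.2 to 302.1), Ndufs4 (328.5, the others 237.1 to 279.6), Ndufa11 (232.5, the others 174.9 to 200.5), Ndufa2 (169.9, the others 116.8 to 141.8) and Ndufb4 (163.4, the others 93.2 to 124.5). In this library the shift of short minus long transcripts was 0.21 log2 units, the most in its group, and its part in these values was not tested. Casted, water replicate 4 was the highest for Ndufs7 (174.9, the others 142.8 to 157.9). Without uncasted replicate 8, the members' median for casting against no casting was -0.63, and 35 members remained called. Without casted, MOTS-c replicate 5, the median for MOTS-c against water in casted mice was 0.06 and 0 members were called.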

How the results depend on the processing

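Log2 differences follow. On deposited TPM, 23 members were called for casting against no casting (19 lower, 4 higher; median -0.142) and 23 for MOTS-c against no casting (19 lower, 4 higher; median -0.153), against 35 each; on re-closed TPM 28 (27 lower, 1 higher) and 25 (24 lower, 1 higher) were called and the medians were -0.362 and -0.312. With only casted replicates 1 to 4, MOTS-c against casting alone had a median of -0.06 and core minus accessory 0.064; with only 5 to 8, 16 called, 0.217 and -0.228. That division was taken from these same data, so the 16 calls are no test of MOTS-c. Median-of-ratios scaling, pseudocount, filter, samples fitted, array weights, added copies and length trend left 34 or 35 members called in both comparisons with uncasted mice and 0 for MOTS-c against casting alone. Leaving out 1 library gave 35 called, 0 called and 34 to 35 for casting, MOTS-c against casting alone and MOTS-c against no casting, with medians of -0.703 to -0.630, 0.054 to 0.122 and -0.628 to -0.554, and core minus accessory of -0.080 to -0.032, -0.096 to -0.028 and -0.065 to -0.044. With the replicate block, 35, 0 and 34 were called. Deviations of same-numbered libraries correlated at -0.245 to 0.371, over 0.1 in 6 of 24 pairs. Whether the numbers stand for any shared handling of mice cannot be told from these values.

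Members changed sign as follows; for MOTS-c against casting alone, and for settings other than deposited and re-closed TPM, only core genes and genes named for that comparison are listed. Casting, deposited TPM (10 members): Ndufs3 0.218, Ndufv1 0.004, Ndufa4 0.149, Ndufa6 0.136, Ndufa7 0.499, Ndufa10 0.135, Ndufa12 0.129, Ndufs4 0.306, Ndufs5 0.132 and Ndufb4 0.178; re-closed: Ndufa7 0.281 and Ndufs4 0.087; Ndufa7 also with casted replicates 1 to 4 (0.075), the length trend removed (0.011) or 1 library left out (-0.036 to 0.019). MOTS-c against casting alone, where 10 members changed sign on deposited and 4 on re-closed TPM: Ndufs7 -0.022 and Ndufv1 -0.067 (deposited), Ndufv1 -0.007 (re-closed), -0.015 (array weights) and -0.027 to 0.034 (1 library left out), Ndufv2 -0.025, Ndufv3 -0.037 and Ndufa3 -0.085 (casted replicates 1 to 4), and Ndufb4 0.238 (copies added). MOTS-c against no casting, deposited (11 members): Ndufs3 0.085, Ndufa4 0.186, Ndufa6 0.169, Ndufa7 0.418, Ndufa10 0.161, Ndufa12 0.068, Ndufs4 0.144, Ndufs5 0.139, Ndufb3 0.079, Ndufs6 0.021 and Ndufa3 0.083; re-closed: Ndufa4 0.026, Ndufa6 0.010, Ndufa7 0.259 and Ndufa10 0.002; Ndufa7 -0.037 to 0.015 with 1 library left out. Ndufa3 missed the threshold without the filter (-0.354, limma adjusted p = 0.0512). Other members kept their sign on deposited TPM but missed the threshold. For casting these were Ndufa2, Ndufa3, Ndufa5, Ndufa8, Ndufb3, Ndufb11 and Ndufc2. For MOTS-c against no casting they were Ndufa1, Ndufa2, Ndufa5, Ndufa8, Ndufb4 and Ndufv1. The cause of these changes was not tested. TPM keep no depth, so how far depth limits these values is unknown.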

Other observations

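Ndufa4l2, a paralog of Ndufa4 known as a hypoxia-induced gene, is not one of the 36 members. It fell with casting by 0.60 ± 0.13 (limma adjusted p = 0.0002656), against 0.37 for Ndufa4, and did not pass for MOTS-c against water in casted mice (0.07 ± 0.13; unadjusted p = 0.5619).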
